A study of Homo sapiens with 10 samples.

Results

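The FOS genes (FOS, FOSB, FOSL1 and FOSL2), the JUN genes (JUN, JUNB and JUND) and 3 EGR genes (EGR1, EGR2 and EGR3) were followed in PC3 cells. They were chosen by gene symbol, and all 10 were found among the 62656 genes of the deposited table. PC3 is a human prostate cancer line derived from a bone metastasis, labelled as epithelial. The cells were starved overnight and then kept for 24 h either with the vehicle DMSO or with GW3965 at 1 µM, which is a synthetic agonist of the liver X receptors (LXRs), and both conditions had the same RPMI-1640 medium with L-glutamine. There were 5 libraries of total RNA depleted of ribosomal RNA per condition, numbered in the titles, and 1 time point. No source states whether the libraries of a condition came from separate cultures, so the p-values below measure only the spread between these libraries.

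FOS and JUN proteins pair with each other through leucine zippers to form AP-1, a transcription factor that binds the TRE and CRE elements of DNA. FOS proteins need a JUN partner, whereas JUN proteins can also pair among themselves. EGR proteins bind GC-rich sites through zinc fingers and are held in check by the corepressors NAB1 and NAB2. FOS, FOSB, EGR1, EGR2 and EGR3 are classical immediate early genes: serum or growth factors switch them on within minutes through the serum response factor SRF, and their short-lived RNAs are soon lost again. FOSL1 and FOSL2 respond later or for longer, JUND is expressed in most resting cells, and FOSL1 is known for its high level in invasive epithelial tumour cells.

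After a day in these conditions, the PC3 libraries held much RNA of FOSL1, JUND, JUNB, JUN and FOSL2 and almost none of FOS, FOSB, EGR1, EGR2 and EGR3. None of the 5 expressed genes differed between GW3965 and DMSO past the test's threshold. Of the 5 scarce genes, FOSB alone was lower with GW3965 in a test of that gene by itself, on few reads, and 1 call in 10 genes was near the share over all genes. FOSL1 and JUN varied between libraries more than between conditions, and 3 libraries from both conditions were low in both genes. That low level was not shown to be particular to FOSL1 and JUN.

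Promoter sequences are shown first for the members whose window holds an element that these families are known to answer to. The RefSeq promoter table, on the build GRCh38.p14, spans 250 bases before to 50 bases after each gene start, and it holds 10 windows for 8 of the 10 members, of which 3 are for alternative starts of EGR2. FOSL1 and EGR3 were not found in it. Both strands were searched for the CArG box, which SRF binds, for the CRE (TGACGTCA), for the TRE (TGANTCA) and for the EGR site (GCGNGGGCG). The bases below lie before the start and outside the gene's exons, and capitals mark the motifs.
EGR1, chr5:138465229-138465478, + strand: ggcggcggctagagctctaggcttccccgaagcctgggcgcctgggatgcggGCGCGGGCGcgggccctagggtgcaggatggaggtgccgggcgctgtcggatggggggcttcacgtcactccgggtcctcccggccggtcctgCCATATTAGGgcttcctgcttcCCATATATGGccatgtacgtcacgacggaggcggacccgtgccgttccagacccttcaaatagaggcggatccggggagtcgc
EGR2, chr10:62816367-62816616, − strand: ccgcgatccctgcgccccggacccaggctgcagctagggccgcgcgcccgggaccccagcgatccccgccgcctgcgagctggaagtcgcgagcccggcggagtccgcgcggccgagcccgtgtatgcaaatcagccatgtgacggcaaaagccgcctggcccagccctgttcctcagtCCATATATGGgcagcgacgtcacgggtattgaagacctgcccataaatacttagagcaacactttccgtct
JUND, chr19:18281623-18281872, − strand: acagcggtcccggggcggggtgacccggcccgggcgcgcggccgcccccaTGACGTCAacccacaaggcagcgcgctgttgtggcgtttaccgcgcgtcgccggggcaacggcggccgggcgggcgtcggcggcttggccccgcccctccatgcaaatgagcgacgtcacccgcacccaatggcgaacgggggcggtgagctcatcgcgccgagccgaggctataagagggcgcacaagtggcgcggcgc

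The EGR1 window holds 2 CArG boxes, which begin 105 and 83 bases before the start, and an EGR site that begins 198 bases before it. One window of EGR2 holds a CArG box that begins 71 bases before the start, and another holds an EGR site that begins 8 bases after its start. Among the expressed genes, the JUND window holds a CRE that begins 200 bases before the start, and the FOSL2 window holds a TRE that begins 4 bases after it. The windows of FOS, FOSB, JUN and JUNB hold none of the 4 motifs in these letters. The JUN window, from 58783998 to 58784297, lies wholly inside the span of the JUN gene given below, from 58780788 to 58784327. Bases outside the windows were not searched, so whether these genes have such motifs farther before their starts was not tested. Over all 35116 windows of the table, 1.29% hold a CArG box, 1.85% a CRE, 7.71% a TRE and 9.43% an EGR site. A match describes the letters only, and binding was not measured.

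The deposited unit, RPKM, divides the reads of a gene by its length and by a factor for the library, so that levels can be compared between genes. The whole reads behind the values could be recovered and came to between 30429384 and 41636379 per library. ABCA1 and ABCG1, LXR targets that export cholesterol, rose from 3.43 ± 1.34 to 16.5 ± 2.37 RPKM and from 1.57 ± 0.392 to 7.06 ± 0.79 RPKM (SD, n = 5) as a check of the condition labels. The epithelial keratins KRT8, KRT18 and KRT19 stood at means of 36.6, 49.6 and 149 RPKM, EPCAM at 1.73 and CDH1 at 0.285, while the 5 leukocyte markers had at most 0.134 RPKM. DMSO library 1 and GW3965 libraries 1 and 2 stood apart from the other 7 on the leading component of the reads, with scores from 17.7 to 19.7 against at most 3.91. Each result that rests on them is given with and without them.

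FOSL1, also called FRA1, was by far the most abundant FOS gene. It lies on chromosome 11 from 65892049 to 65900573 (− strand, GENCODE 29 on GRCh38). Its level in DMSO libraries 1 to 5 was 69.3, 96.1, 95.2, 105.1 and 96.5 RPKM, and in GW3965 libraries 1 to 5 it was 79.6, 82.0, 113.6, 120.2 and 109.1 RPKM. GW3965 libraries 3, 4 and 5 lay above every DMSO library, and GW3965 libraries 1 and 2 lay below all DMSO libraries but the first. FOSL1 ranked at place 474 of all genes by mean RPKM and took a median of 92.4% of the summed RPKM of the FOS family in a library, with a range from 90.9 to 93.3%. FOSL2 (FRA2), on chromosome 2 from 28392448 to 28417312, supplied most of the remainder, with a median of 7.37%. It ran from 6.43 to 8.39 RPKM with DMSO (median 7.60) and from 6.92 to 8.52 RPKM with GW3965 (median 8.00), so the conditions overlapped.

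JUND, the constitutive JUN gene, was the second most abundant member and the steadiest. It lies on chromosome 19 from 18279760 to 18281622 (− strand). It stood at 42.4, 40.9, 44.9, 48.8 and 43.3 RPKM in DMSO libraries 1 to 5 and at 43.7, 45.4, 48.7, 45.9 and 43.5 RPKM in GW3965 libraries 1 to 5. The GW3965 range lay inside the DMSO range. JUND took a median of 61.8% of the summed RPKM of the JUN family, JUNB 22.2% and JUN 17.6%. JUNB, which often restrains JUN, lies on chromosome 19 from 12791496 to 12793315 and stood at 15.4, 12.8, 17.3, 16.0 and 14.7 RPKM with DMSO and at 16.6, 16.6, 15.2, 16.5 and 17.2 RPKM with GW3965. Here too the GW3965 libraries lay inside the DMSO range. JUN, on chromosome 1 from 58780788 to 58784327 (− strand), stood at 9.30, 12.7, 13.4, 13.8 and 12.0 RPKM with DMSO and at 10.2, 9.97, 15.1, 13.7 and 15.1 RPKM with GW3965. As with FOSL1, the 3 lowest JUN values were those of DMSO library 1 and GW3965 libraries 1 and 2.

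**Figure D1:**
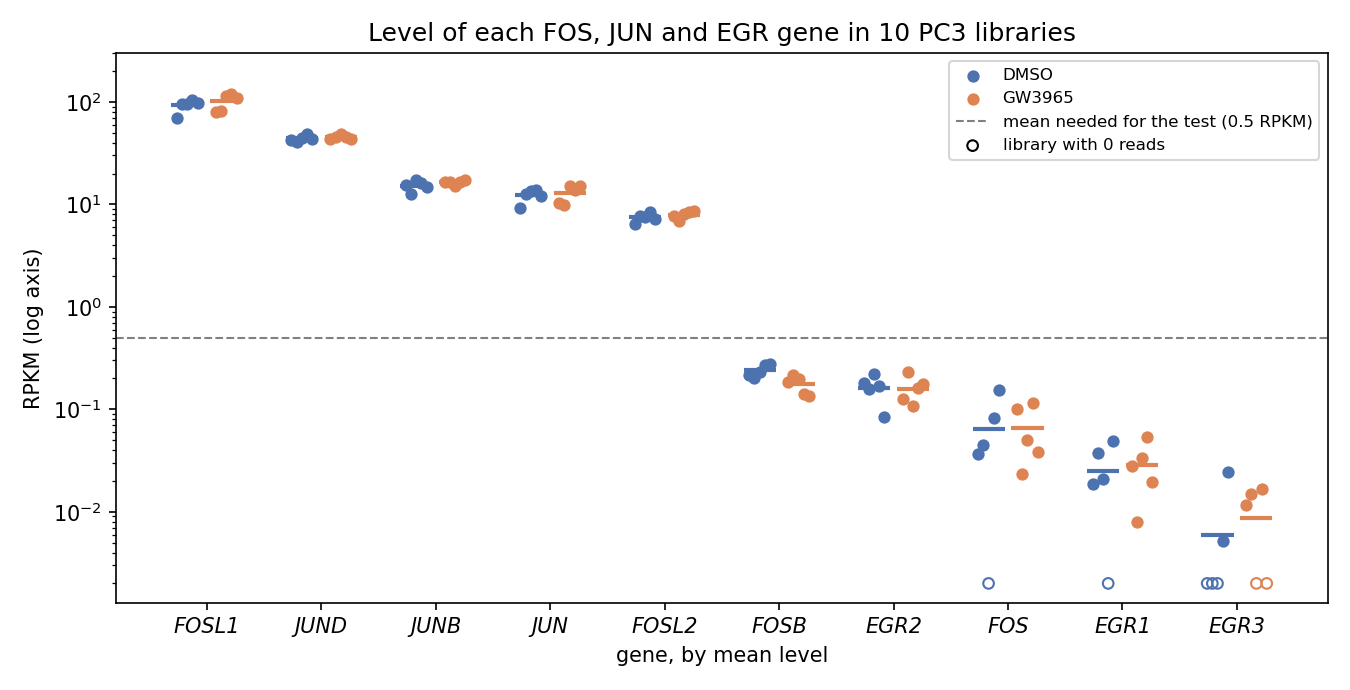
RPKM on a log axis for each gene (genes on the x axis, by mean level), with 1 point per library, 5 for DMSO and 5 for GW3965, and a bar at each condition's mean. Hollow circles near the bottom are libraries with 0 reads, and the dashed line is the mean of 0.5 RPKM needed for the test, with 5 genes above it and 5 below.

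By mean RPKM over the 10 libraries, the order was FOSL1 (96.7), JUND (44.7), JUNB (15.8), JUN (12.5), FOSL2 (7.68), FOSB (0.207), EGR2 (0.161), FOS (0.0647), EGR1 (0.027) and EGR3 (0.0073). The ranges of FOSL1 and JUND did not overlap over the libraries, nor did those of JUND and JUNB, of JUN and FOSL2, or of FOSL2 and FOSB. JUNB was above JUN in 10 of 10 libraries, but their ranges overlapped, and with the gene lengths of GENCODE 29 in place of the authors' it was above in 8 of 10. FOSB was above EGR2 in 7 of 10 libraries, a pair that the spread between libraries did not separate. EGR2 was above FOS in 9 of 10, FOS above EGR1 in 9 of 10 and EGR1 above EGR3 in 8 of 10, with overlapping ranges in each case. The step from FOSL2 to FOSB, a ratio of 37.0 between means, was the widest of the 9 steps in the order and divided the 5 expressed genes from the 5 scarce ones.

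**Figure D2:**
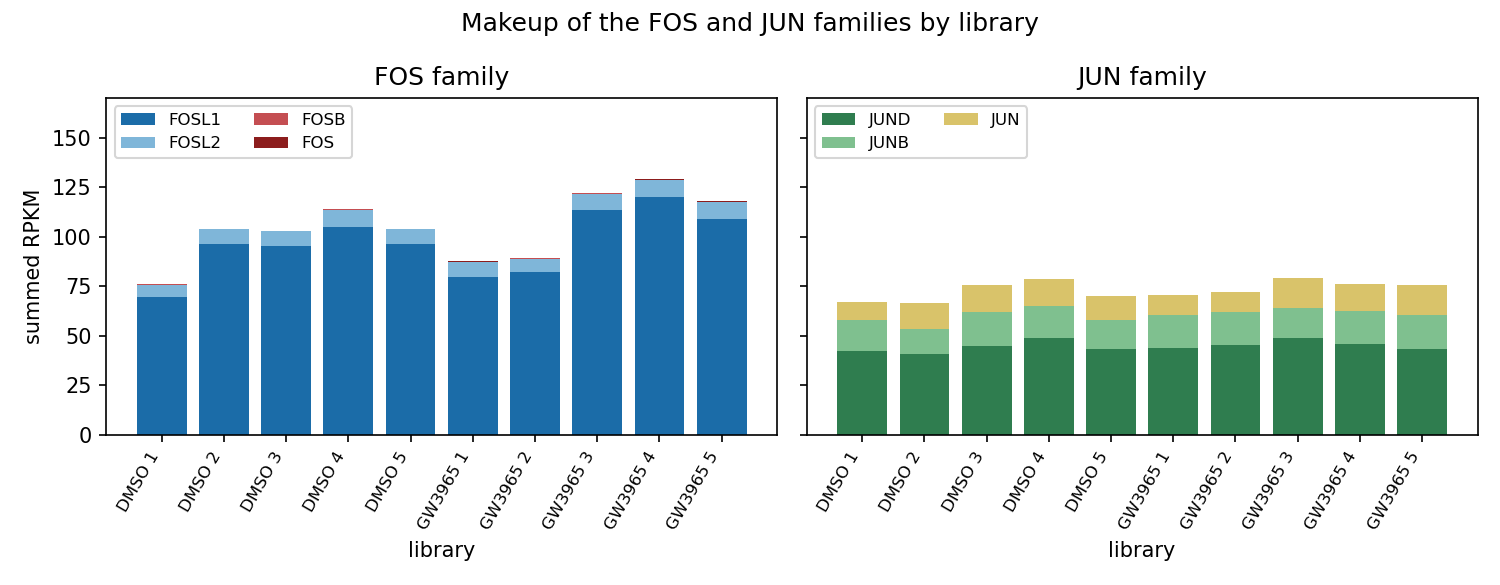
Summed RPKM of the FOS family (left) and the JUN family (right), 1 bar per library, with each gene's part in its own colour. FOSL1 makes up 90.9 to 93.3% of every bar on the left and JUND 57.4 to 63.2% of every bar on the right, while FOS and FOSB are too small to be seen at this scale.

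FOS, the founding member of its family, had 4, 6, 0, 10 and 16 reads in DMSO libraries 1 to 5 and 11, 3, 6, 13 and 4 reads in GW3965 libraries 1 to 5. These are 0 to 0.155 RPKM with DMSO and 0.0236 to 0.115 RPKM with GW3965, and 0 reads in DMSO library 3 allow up to 0.0311 RPKM, the level of 3 reads. EGR1 had at most 6 reads in any library, 14 over the DMSO libraries and 16 over the GW3965 libraries. EGR3 had 0 reads in 5 of 10 libraries and at most 4 in the others, 5 with DMSO and 8 with GW3965 in all. Both genes are among the first to be switched on by fresh serum. EGR2, by contrast, was found in every library, with 10 to 34 reads. It lay between 0.0832 and 0.223 RPKM with DMSO and between 0.107 and 0.229 RPKM with GW3965. Fewer cells with a gene's RNA and less RNA per cell cannot be told apart in these bulk libraries.

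FOSB, whose protein can be shortened by alternative splicing to a long-lived form, had 24 to 57 reads in a library. It lies on chromosome 19 from 45467995 to 45475179. It stood at 0.214, 0.204, 0.232, 0.270 and 0.278 RPKM in DMSO libraries 1 to 5 and at 0.185, 0.216, 0.200, 0.142 and 0.133 RPKM in GW3965 libraries 1 to 5. GW3965 library 2 lay above DMSO libraries 1 and 2, and the other 4 GW3965 libraries lay below all 5 DMSO libraries.

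Whether LXR activation changed these genes was tested by limma on log2(RPKM + 0.1), two-sided and adjusted after Benjamini and Hochberg over the 20402 genes whose mean reached 0.5 RPKM. Fold changes on that log scale come out too small for genes of few reads. Of all tested genes, 0.157% were past the adjusted threshold of 0.05, 0.147% as higher and 0.00980% as lower with GW3965. Of the 5 expressed members, 0 were past it, and 0 had an unadjusted p under 0.05, against 6.99% of all tested genes. In 0 of them did the conditions separate without overlap, against 1.84% of all tested genes.

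FOSL1 had means of 92.4 ± 13.5 RPKM with DMSO and 101 ± 18.8 RPKM with GW3965 (SD, n = 5). The log2 fold change was 0.12, with a 95% interval from -0.20 to 0.44 (limma adjusted p = 0.941). The interval is wide because the libraries of each condition were far apart. For JUN the means were 12.2 ± 1.77 and 12.8 ± 2.55 RPKM, with a log2 fold change of 0.06 and an interval from -0.27 to 0.38 (limma adjusted p = 0.977). The sign for JUN turned when DMSO library 1 or GW3965 library 3 or 5 was left out, with log2 fold changes of -0.039, -0.009 and -0.0099. FOSL2 had a log2 fold change of 0.08 with an interval from -0.10 to 0.26 (limma adjusted p = 0.924). JUNB had means of 15.2 ± 1.69 and 16.4 ± 0.734 RPKM and a log2 fold change of 0.11 with an interval from -0.06 to 0.28 (limma adjusted p = 0.853).

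JUND gave the tightest bound. Its means were 44.0 ± 3.02 and 45.5 ± 2.11 RPKM (SD, n = 5), and its log2 fold change was 0.05 with an interval from -0.08 to 0.18 (limma adjusted p = 0.944), which is a ratio between 0.944 and 1.13. Its standard error of 0.06 was smaller than that of 95.3% of all tested genes. The intervals of FOSL1 and JUN reach up to ratios of 1.35 and 1.30. All 5 log2 fold changes were above 0, with a median of 0.08, while over all tested genes the median was 0.0034 and 51.1% were above 0. The 5 values come from the same libraries and are not separate observations, and that of JUN turned negative when some single libraries were left out.

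The 5 scarce members were too low for that test and were compared by themselves, by an exact permutation test (two-sided) over the 252 labellings of the libraries and no adjustment. FOSB was lower with GW3965, at 0.239 ± 0.033 against 0.175 ± 0.0361 RPKM (SD, n = 5), with a difference of -0.31 in mean log2(RPKM + 0.1) and an exact permutation p of 0.0238. It was the single member of 10 with p under 0.05 in this test, and of the 47537 genes above 0 in any library 4.83% had such a p, so 1 of 10 is near the background. With limma on all these genes, the unadjusted p of FOSB was 0.102 and the adjusted p 0.913. Summed over libraries, FOSB had 235 reads with DMSO and 177 with GW3965, and the ratio of scaled reads was 0.745 with an exact interval from 0.609 to 0.909, which covers counting error only. The FOSB call was lost with quantile normalization (difference -0.13, exact permutation p = 0.579) and without DMSO library 4 (p = 0.0556) or 5 (p = 0.0635). JUNB, at an exact permutation p of 0.198, passed without DMSO library 3 (difference 0.16, p = 0.0317).

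For the other scarce genes the depth allowed little more than a level. The ratio of scaled reads was 1.02 for FOS, with a counting interval from 0.625 to 1.65, and 0.989 for EGR2, with one from 0.749 to 1.31. For EGR1 it was 1.13, with an interval from 0.517 to 2.50, and for EGR3 1.58, with one from 0.456 to 6.15. Each interval includes ratios below and above 1. The exact permutation p was 0.817 for FOS, 0.929 for EGR2, 0.746 for EGR1 and 0.683 for EGR3, with the 5 DMSO and the 5 GW3965 libraries overlapping in all of them. A change of EGR1 or EGR3 within these intervals was not detectable at this depth.

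**Figure D3:**
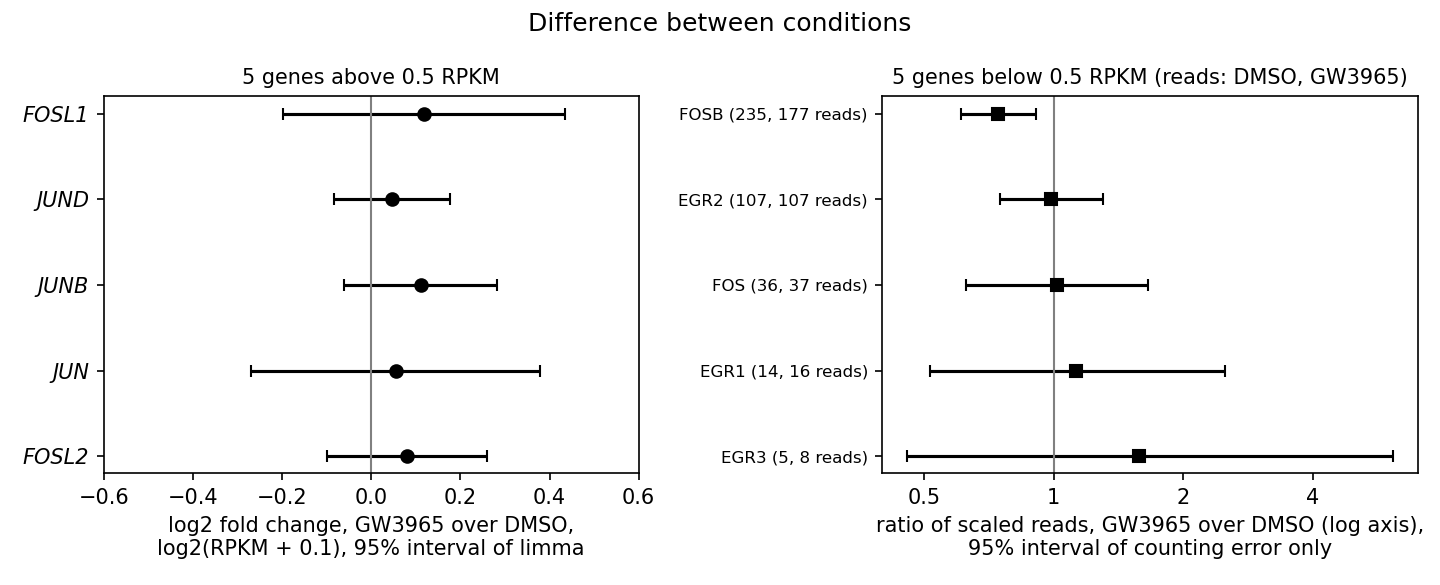
Left, log2 fold change of GW3965 over DMSO for the 5 genes above 0.5 RPKM, with the 95% interval of limma, all of which include 0. Right, ratio of scaled reads on a log axis for the 5 scarce genes, with a 95% interval of counting error only, in which FOSB at 0.745 lies below 1 with its whole interval and the other 4 include 1.

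The 3 libraries that stand apart changed what FOSL1 and JUN showed. In those 3 libraries FOSL1 ran from 69.3 to 82.0 RPKM, and in the other 7 from 95.2 to 120 RPKM. JUN ran from 9.30 to 10.2 and from 12.0 to 15.1 RPKM, so both genes separated the 3 libraries from the 7 without overlap. The 3 libraries were picked by their score on the leading component, which was computed from reads that include those of FOSL1 and JUN. The share of all tested genes that separate them in this way was not counted. The separation is thus not shown to be particular to FOSL1 and JUN. FOSL2, at 6.43 to 7.63 against 7.22 to 8.52 RPKM, overlapped, as did JUNB and JUND, both of which had all 3 libraries inside the range of the other 7. Total reads ran from 30429384 to 36921666 in the 3 libraries and from 30610148 to 41636379 in the other 7, and the 7SL RNAs took 12.0 to 21.4% and 13.7 to 23.2% of them. The part of these libraries' state in the FOSL1 and JUN values was not tested.

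Without these 3 libraries, 4 DMSO and 3 GW3965 libraries remain. FOSL1 then ran from 95.2 to 105.1 RPKM with DMSO and from 109.1 to 120.2 RPKM with GW3965, with a log2 fold change of 0.22 and an interval from 0.08 to 0.36 (limma unadjusted p = 0.00672, adjusted p = 0.291). The conditions no longer overlapped for FOSL1, as for 10.8% of all tested genes in these 7 libraries, and the exact permutation p was 0.0571, where 35 labellings allow 0.0286 at the lowest. JUN had a log2 fold change of 0.17 with an interval from 0.01 to 0.33 (limma unadjusted p = 0.0393, adjusted p = 0.463). In this fit 10.1% of all tested genes had an unadjusted p under 0.05, as did FOSL1 and JUN, 2 of the 5 expressed members. FOSB separated too, at 0.204 to 0.278 against 0.133 to 0.200 RPKM, with 194 and 94 reads (exact permutation p = 0.0286, the smallest possible here). The libraries left out include GW3965 library 2, the only GW3965 library that lay above any DMSO library for FOSB. FOSB is not among the tested genes, and no share over genes as low as FOSB was counted in these 7 libraries. Its separation is therefore a description only.

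With all 10 libraries and the leading component as a covariate, FOSL1 had a log2 fold change of 0.17 (limma unadjusted p = 0.0162, adjusted p = 0.274) and FOSL2 one of 0.10 (limma unadjusted p = 0.0386, adjusted p = 0.365). In that fit 12.4% of all tested genes had an unadjusted p under 0.05, and 0 members were past the adjusted threshold. Both fits were chosen after the values had been seen.

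How the expressed members vary together within a condition was examined from their deviations from the condition means, over 10 pairs of genes. Over all 10 libraries, 3 pairs (FOSL1 with FOSL2, FOSL1 with JUN and FOSL2 with JUN) passed an exact permutation test of Pearson's r within conditions, with adjusted p = 0.0205, 0.0345 and 0.0146. By Spearman's rho 0 pairs passed (lowest adjusted p = 0.0618 by the exact permutation test). The share of all pairs of tested genes passing Pearson's test was not counted. The 3 passes are thus not shown to be particular to these members. The libraries fall into 3 and 7 for FOSL1 and JUN, so no r over all 10 is given. Within the other 7 libraries, 0 of 10 pairs passed. There FOSL1 with FOSL2 had an r of 0.56 (exact permutation p = 0.257, adjusted 0.784) and a rho of 0.18 (p = 0.75, adjusted 0.931). FOSL1 with JUN had an r of -0.02 (exact permutation p = 0.965, adjusted 0.965) and a rho of -0.07 (p = 0.903, adjusted 0.931). FOSL2 with JUN had an r of 0.56 (exact permutation p = 0.222, adjusted 0.784) and a rho of 0.68 (p = 0.153, adjusted 0.88). With the 2 libraries farthest from the median of the first gene also left out, r was 0.62, 0.83 and 0.10 over the last 5 libraries. When a single library was left out, 0 pairs passed if it was DMSO library 1 or 4, 1 pair if it was GW3965 library 3, and 2 or 3 pairs for each of the others.

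The genes most like FOSL1 over the 10 libraries, by Pearson's r of the same deviations among all tested genes, were HIST1H2BC, a histone gene, DNMT1, the maintenance DNA methyltransferase, and TACC3, a protein of the mitotic spindle. Within the 7 libraries their r with FOSL1 was 0.95, 0.96 and 0.93. Among the DMSO libraries, all 3 were lowest in library 1, as FOSL1 was. Both observations rest on libraries that were used to choose the 3 genes, so they are no separate evidence of likeness. They had log2 fold changes of -0.29, -0.11 and -0.09 between conditions (limma adjusted p = 0.784, 0.935 and 0.956). No such list is given for FOS and EGR1, which had at most 16 reads in a library.

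FOSL1 has a processed pseudogene, FOSL1P1, on chromosome 4 from 128155389 to 128156204. It had 80 to 212 reads in a library and means of 4.14 ± 0.872 RPKM with DMSO and 5.32 ± 1.52 RPKM with GW3965 (SD, n = 5). Of 2026 windows of 50 bases, the length of a read, in the FOSL1 transcripts, 59 (2.91%) also occur in FOSL1P1, so few FOSL1 reads could have been split between them. They are 7.69% of the 767 windows of FOSL1P1, and FOSL1 had 4518 to 8120 reads in a library. The share of FOSL1P1 reads that came from FOSL1 RNA was not tested. The log2 fold change of FOSL1P1 was 0.33 (limma adjusted p = 0.835). In JUNB, 259 of 1820 exon bases are also exon of HOOK2 on the opposite strand, and in EGR3 164 of 4855 are also exon of AC055854.1, which had 3 reads in all. The library kit marks the strand, but no source states whether the counting used it. The JUNB reads may thus include some of HOOK2 or lack reads of the shared bases, which was not tested. For the other members no exon base is shared with another gene. FOSB does overlap ERCC1, a gene on the opposite strand with 14930 reads in all, though they share 0 exon bases. Whether reads from ERCC1 RNA entered the few FOSB reads was not tested.

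The partners with which FOS and JUN proteins can pair outside their own families gave no call. Of 17 such genes, 11 were tested and 0 were past the adjusted threshold in either direction, with a median log2 fold change of 0.02. ATF4, a factor of the amino acid and stress response, had the highest at 0.13, and ATF7 the lowest at -0.11. Of 25 kinases and SRF factors that lead from growth factor receptors to immediate early promoters, all 25 were tested and 0 were past the threshold, with a median of -0.02. Their ends were RPS6KA3, a kinase downstream of ERK, with 0.13 and MAPK7, which encodes ERK5, with -0.18. The EGR corepressors NAB1 and NAB2 had log2 fold changes of 0.14 and -0.05, and neither passed.

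Among 41 other immediate early genes, 32 were tested, and KLF4 was past the threshold. KLF4 encodes a zinc-finger transcription factor of epithelial differentiation. Its level was 2.75 ± 0.235 RPKM in DMSO and 5.80 ± 0.483 RPKM in GW3965 libraries (SD, n = 5), a log2 difference of 1.05 (SE 0.08, limma adjusted p = 0.000178). The median log2 fold change of the 32 genes was 0.04, and CSRNP1 was the lowest with -0.26. An unadjusted p under 0.05 was seen in 8 of them (25%, against 6.99% of all tested genes), of which 6 had a positive and 2 a negative log2 fold change. In 5 tested genes the conditions did not overlap (against 1.84% of all tested genes), and they are named here after their values were seen. These were KLF4, IER5 (0.32), ZFP36L1 (0.26), which encodes an RNA-binding protein that hastens RNA decay, PHLDA1 (0.21) and IER3 (-0.24), and the limma adjusted p of the last 4 lay between 0.123 and 0.567. The list was chosen with earlier results of these data known, so these shares are no independent support.

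Of 30 genes known as AP-1 or EGR targets, 21 were tested. AREG, which encodes the EGF receptor ligand amphiregulin, was past the threshold, with 5.23 ± 0.41 RPKM with DMSO and 11.8 ± 1.35 RPKM with GW3965 (SD, n = 5) and a log2 fold change of 1.15 (limma adjusted p = 0.00021). The other 20 did not pass, down to MT2A, a metallothionein gene, with -0.29, and the median of the 21 was 0.0049. Whether the changes of KLF4 and AREG differ from those of the FOS and JUN genes was not tested.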

How the data were processed

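Reads of 50 bases from 10 libraries of PC3 cells, 5 per condition, were processed by the authors. Their methods name Hisat2 and the mouse genome, whereas the submitters' processing notes name hg38, HISAT2 2.1.0, HTSeq 0.11.2 and DESeq2 1.22.2, and all gene identifiers are human. The methods describe rRNA-depleted total RNA, the labels polyA RNA. The annotation release is not given in the sources used here. The authors deposited RPKM values for 62656 genes, of which 15119 were 0 in all libraries.

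Reads were recovered from the RPKM steps (100% of the values came out whole; for 6 genes the scale was read from the gene length). The library factors were median-of-ratios size factors. No 2 libraries were near-identical (chi-square per degree of freedom from 6.79 to 72.9).

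limma 3.58.1 in R 4.3.3 (eBayes with a trend) was run on log2(RPKM + 0.1) for the 20402 genes whose mean reached 0.5 RPKM. Tests were two-sided, p-values were adjusted after Benjamini and Hochberg, and 0.05 was the threshold. Exact permutation tests were run in Python 3.11.15. Intervals are 95%, and read ratios have exact Clopper-Pearson intervals, which cover counting error only. The leading component was taken from log2(reads / size factor + 8) over genes averaging 100 reads or more, and held 41.4% of their variance.

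The members and gene lists were chosen with earlier results of these data known, so they are no independent support. Named are all members, of each list the genes past the threshold and those with the highest and lowest log2 fold change, ABCA1 and ABCG1, and the 3 genes most like FOSL1. The rule also asked for those most like FOS and EGR1, which are not given because of their few reads. Other names are marked. Alternatives were a pseudocount of 1 or of 0.01, a filter at 1 RPKM or none, 2 other scalings, a replicate block, no trend, library weights, voom on recovered reads and the loss of each library. The mouse and RT-qPCR data were not used here.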

Additional observations from a re-analysis of the deposited data

Results flagged for a closer look

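In 6 of 52 groups of 5 libraries of 1 condition, 1 library lay far from the other 4, by a gap of more than 0.71 of the whole range of log2 values. Chance alone gives about 1 in 20, or 2.6 of 52. FOSL1 was lowest in DMSO library 1, with a gap of 0.763 of the range, at 69.3 RPKM against 95.2 to 105.1 RPKM in the other 4. The same library was lowest, at 170 against 237 to 263 RPKM, for HIST1H2BC (0.768), at 9.31 against 12.4 to 13.4 RPKM for DNMT1 (0.792), and at 4.43 against 6.15 to 6.76 RPKM for TACC3 (0.773). These 3 genes were named for their likeness to FOSL1, so their gaps are not separate observations. EGR3 was highest in DMSO library 5, with a gap of 0.768, at 0.0245 RPKM from 4 reads against at most 0.0052 RPKM. AREG was lowest in GW3965 library 5, with a gap of 0.721, at 9.45 RPKM against 11.9 to 13.0 RPKM.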

How the results depend on the processing

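Over 22 alternative settings, 0 members were past the adjusted threshold of limma, and the log2 fold changes kept their sign for FOSL1 (0.019 to 0.22), FOSL2 (0.03 to 0.13), JUNB (0.05 to 0.16) and JUND (0.02 to 0.09). That of JUN ran from -0.039 to 0.17 and was negative without DMSO library 1 (-0.039) or GW3965 library 3 (-0.009) or 5 (-0.0099). KLF4 and AREG were called in all 22. The genes called over all genes numbered 32 as reported, 21 without a filter, 20 without a trend, 56 with library weights, 63 with voom on recovered reads and 17 to 38 when 1 library was left out. Chosen after the data were seen were the leading component as a covariate, with 146 genes called and 4 of the other immediate early genes in place of 1, and the loss of the 3 libraries that stand apart, with 18. Whether replicate numbers pair the libraries was not settled. The deviations of same-numbered libraries correlated at -0.138 to 0.16, and differently numbered libraries were not compared. On the leading component, replicate 1 had the highest score with DMSO (17.8) and with GW3965 (19.7). Replicate 4 had the lowest with DMSO (-21.9) and with GW3965 (-11.8). With replicate numbers as a block, 16 genes and 0 members were called.

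By single-gene permutation, 1 member (FOSB) passed as reported. The number passing was 0 with quantile normalization, where the values of EGR2 (0.15) and EGR3 (-0.011) turned sign, and 0 to 2 when 1 library was left out. In those fits the difference ran from -0.10 to 0.23 for FOS, -0.036 to 0.11 for EGR1, -0.14 to 0.066 for EGR2 and -0.039 to 0.14 for JUN. EGR3 stood at -0.023 without the 3 libraries. Of the 3 pairs of members that varied together, 0 passed with quantile normalization, 0 without the 3 libraries and 0 to 3 when 1 library was left out. The causes were not tested.

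Depth limits FOS, EGR1 and EGR3, with at most 16 reads in a library, to levels and wide intervals. The spread between libraries, not depth, sets the intervals of FOSL1 and JUN.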
